A study of Mus musculus and Homo sapiens with 56 samples.

Results

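Of the 87268 m6A peaks in the D395A and WT lists of mouse embryonic stem cells, 6177 had their summit in no gene span of the study's RNA count table but within 5 kb of one. These flanking peaks were chosen by position alone, and each was put upstream (the promoter side) or downstream (the readthrough side) of its nearest gene by that gene's strand. The D395A list held 2171 of them among 38823 peaks (5.59%), 1481 downstream and 690 upstream. The WT list held 4006 among 48445 peaks (8.27%), 2415 downstream and 1589 upstream, and 2 next to a gene listed on both strands. The study concerns the link between m6A in chromatin-bound RNA and the histone mark H3K9me2. The D395A cells are labelled only by that name, known as a substitution that removes the methyltransferase activity of METTL3, and the WT cells are E14TG2a, a mouse embryonic stem cell line. Labels describe both as untreated, and the one mouse culture protocol has cells on gelatin in N2B27 medium with LIF, the MEK inhibitor PD0325901 and the GSK3β inhibitor CHIR99021. RNA bound to chromatin was fragmented and pulled down with an antibody to m6A, from 1 immunoprecipitate in D395A cells and 2 in WT cells, and rRNA-depleted RNA was sequenced from 2 libraries of each genotype. The labels do not say whether the D395A line is 1 clone, or whether libraries came from separate cultures, so p-values measure only the spread between these libraries.

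N6-methyladenosine (m6A) is placed on nascent RNA by the METTL3 and METTL14 complex, mostly at adenosines in a GGAC-like context, and is best known near stop codons and in long exons. RNA polymerase II goes on transcribing past the cleavage and polyadenylation site, and the RNA made there is normally degraded by the exonuclease XRN2. At promoters it also makes short-lived RNA in the antisense direction, which the nuclear exosome removes. Chromatin-bound RNA holds such unstable transcripts along with unspliced pre-mRNA, so an antibody to m6A applied to it can recover RNA from outside annotated genes.

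A peak upstream of a gene can lie in the promoter itself, so 4 promoters that held such summits are shown with the m6A core motif. They are the 250 bases before the RefSeq start of each gene (assembly GRCm38.p6), written in the direction of transcription, with GGAC or its reverse complement GTCC in capitals. Slc8a2 held a D395A summit with a WT peak on it, and Rnpc3, Hunk and Gli2 WT summits among those of highest q. They were chosen after their values were seen.
Slc8a2 promoter, chr7:16129576-16129825, plus strand: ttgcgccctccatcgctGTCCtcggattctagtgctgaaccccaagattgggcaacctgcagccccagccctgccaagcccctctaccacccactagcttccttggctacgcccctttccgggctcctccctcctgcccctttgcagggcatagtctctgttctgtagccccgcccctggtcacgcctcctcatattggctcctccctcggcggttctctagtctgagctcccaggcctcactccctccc
Rnpc3 promoter, chr3:113630150-113630399, minus strand: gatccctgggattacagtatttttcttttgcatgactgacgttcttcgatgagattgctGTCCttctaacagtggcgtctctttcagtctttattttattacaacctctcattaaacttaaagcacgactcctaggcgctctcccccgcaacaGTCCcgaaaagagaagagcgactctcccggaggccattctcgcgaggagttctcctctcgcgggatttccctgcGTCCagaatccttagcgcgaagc
Hunk promoter, chr16:90386147-90386396, plus strand: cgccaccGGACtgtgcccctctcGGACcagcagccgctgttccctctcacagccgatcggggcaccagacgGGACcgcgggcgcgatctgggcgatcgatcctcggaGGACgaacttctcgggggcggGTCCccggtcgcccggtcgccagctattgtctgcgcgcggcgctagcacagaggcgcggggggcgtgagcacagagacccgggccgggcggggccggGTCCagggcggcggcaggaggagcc
Gli2 promoter, chr1:119053620-119053869, minus strand: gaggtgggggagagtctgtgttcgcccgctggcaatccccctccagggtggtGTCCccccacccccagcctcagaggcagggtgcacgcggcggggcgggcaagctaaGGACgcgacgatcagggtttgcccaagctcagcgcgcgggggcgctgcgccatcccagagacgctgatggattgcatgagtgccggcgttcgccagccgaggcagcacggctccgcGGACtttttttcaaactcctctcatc
The summit lay at base 184 of the Slc8a2 window, base 139 of Rnpc3, base 161 of Hunk and base 101 of Gli2, counted from the 5′ end. The strand of a peak is not given, so either strand of the window could be the one in the RNA. GGAC on either strand occurred 1 time in the Slc8a2 window, 3 times in Rnpc3, 6 times in Hunk and 3 times in Gli2. Of the windows that held an upstream summit, GGAC was found on either strand in 30 of 35 for the D395A list (85.7%) and in 88 of 101 for the WT list (87.1%). The share over all 32817 RefSeq promoter windows was 82.3%. The longer motif GGACT, which contains GGAC, was found on either strand in 10 of 35 windows for the D395A list (28.6%) and in 50 of 101 for the WT list (49.5%), beside 38.9% of all windows. Median GC content was 61.6% in the D395A windows and 57.2% in the WT windows, beside 52.4% over all of them.

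Peaks also flanked microRNA genes, of which Mir290a had the strongest in D395A and Mir493 in WT. The mature arms are shown as RefSeq gives them, with the seed (bases 2 to 8) in capitals. The 4 arms share no seed.
mmu-miR-290a-5p: aCUCAAACuaugggggcacuuu
mmu-miR-290a-3p: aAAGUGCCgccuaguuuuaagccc
mmu-miR-493-5p: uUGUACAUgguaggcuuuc
mmu-miR-493-3p: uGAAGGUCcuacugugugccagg
Mir290a heads the cluster of microRNAs most abundant in mouse embryonic stem cells. A D395A peak at chr7:3217784-3218331 had its summit 485 bases upstream of Mir290a, with a fold enrichment of 3.69 and a −log10 q of 7.98, and no WT peak touched it. Mir493 is in the imprinted microRNA cluster beyond Meg3. A WT peak of 7093 bases had its summit 3551 bases upstream of it, with a fold of 7.89 and a −log10 q of 153.6. Its summit lay inside a RefSeq gene span although outside every span of the count table, but the peak itself reached the span of Mir673. A D395A peak overlapped the WT peak.

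The RNA libraries held 12743677 and 18151353 counts in D395A and 13953069 and 19246342 in WT. Mettl3, the gene that carries the substitution, had 30.6 and 33.9 CPM (counts scaled to library size) in D395A and 36.2 and 35.5 CPM in WT, adjusted p = 0.114 in the edgeR quasi-likelihood test, which does not check a substitution. The summed level of 8 pluripotency markers was 2615 and 2630 CPM in D395A and 5618 and 5524 CPM in WT, 7 of 8 lower in D395A and Sox2 not called. Summed markers were 4.64 and 4.04 CPM in D395A against 6.80 and 6.71 CPM in WT for fibroblasts (6 genes), 32.0 and 33.4 against 11.4 and 10.5 CPM for extraembryonic endoderm (6 genes, Afp at 0 in all libraries), and 71.7 and 70.7 against 65.0 and 58.0 CPM for the neural list (4 genes). Of the extraembryonic endoderm genes, Foxa2 made up most of the D395A sum (26.9 and 28.8 CPM in D395A against 0.374 and 0.161 CPM in WT) and Gata4 was lower in D395A (1.45 and 1.86 against 8.14 and 7.99 CPM), and 1 was called higher and 1 lower of 4 tested. In the neural list 3 were called higher and 1 lower, among them Pax6 (15.1 and 16.1 CPM in D395A against 0.374 and 0.376 CPM in WT) and Tubb3 (22.4 and 23.0 against 43.6 and 39.9 CPM). Summed levels were 31.2 and 28.4 against 26.7 and 23.7 CPM for trophectoderm (5 genes) and 2.43 and 2.29 against 32.5 and 28.4 CPM for mesoderm (3 genes). Calls were 1 higher and 2 lower of 4 tested for fibroblasts, 2 higher of 3 for trophectoderm and 2 lower of 2 for mesoderm. Over all genes tested, 36.8% were higher and 34.3% lower in D395A, so counts among so few markers say little by themselves. Their part in the results below was not tested, and in these bulk libraries fewer cells of a type and less RNA per cell cannot be told apart.

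Flanking peaks were more frequent downstream of genes than upstream in both lists. Downstream peaks made up 68.2% of the D395A flanking peaks (95% exact binomial interval 66.2% to 70.2%) and 60.3% of the WT flanking peaks (58.8% to 61.8%). The intervals cover counting error only, since there is 1 list per genotype and peaks are not replicates. The space outside genes was similar on the 2 sides, 139 Mb downstream and 134 Mb upstream. Per Mb, the D395A list had 10.7 peaks downstream and 5.14 upstream, a ratio of 2.08 (1.90 to 2.28). The WT list had 17.4 per Mb downstream and 11.8 upstream, a ratio of 1.47 (1.38 to 1.57). Within gene spans there were 27.9 peaks per Mb in the D395A list and 26.6 in the WT list. Farther than 5 kb from any gene there were 2.87 per Mb in D395A and 10.7 in WT, so the WT upstream density was close to that of distal sequence and the D395A downstream density was well above it.

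The lists were not made to one threshold, and the order of the genotypes in this share depends on it. The D395A list was called at p below 0.05, and 204 of its 2171 flanking peaks (9.40%) passed q below 0.05, 131 downstream and 73 upstream, against 14.1% of the D395A peaks in genes. The WT list was called at q below 0.05. The median fold enrichment of flanking peaks was 2.69 in D395A and 6.09 in WT, and the median width was 299 bases in D395A and 561 in WT. With the 5275 strongest peaks of each list, downstream peaks were 64.2% of the D395A flanking peaks (131 and 73) and 72.6% of the WT flanking peaks (164 and 62). The order between the lists was thus the other way round, while downstream remained ahead of upstream in each. At a −log10 q of at least 3 the D395A list held 45 downstream and 30 upstream flanking peaks, and the ratio per Mb of 1.45 had an interval that includes 1 (0.896 to 2.39). With the flanking peaks of each list ranked by q and cut into 5 equal bins, the D395A share stayed between 67.1% and 71.0%. The WT share was 67.2% in the strongest bin (−log10 q of 36.7 or more) and between 57.9% and 60.3% in the other 4.

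**Figure D1:**
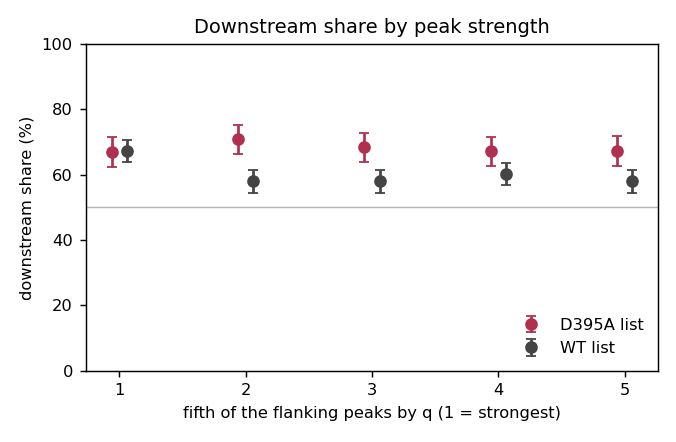
Share of flanking peaks that lie downstream (y axis, percent, from 0 to 100) in 5 equal bins of the flanking peaks of each list ranked by q (x axis, 1 the strongest), with 95% exact binomial intervals; the line marks 50%. D395A points lie between 67.1% and 71.0%, and the WT point is 67.2% in the strongest bin and at most 60.3% in the others. In the D395A list, the last bins have a −log10 q of 0, and their order rests on fold enrichment.

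The sides also differed in how peaks lay along the flank. In the D395A list the downstream density was nearly level, at 10.7 per Mb in the first 500 bases after the gene end and 9.80 per Mb between 4501 and 5000 bases. Upstream it was 8.47 per Mb in the first 500 bases before the start and 3.81 per Mb at 4501 to 5000 bases. The WT list began high on both sides, with 24.9 per Mb in the first 500 bases downstream and 23.7 upstream. It was 15.2 per Mb downstream and 8.35 per Mb upstream at 4501 to 5000 bases. In the D395A list 12.6% of downstream and 20.3% of upstream peaks lay within 500 bases of the gene, and in the WT list 18.1% and 24.7%, where the same 500 bases make up 12.7% of downstream and 12.3% of upstream flank. The median distance was 2185 bases downstream and 1859 bases upstream in D395A, and 1968 and 1674 bases in WT. Just beyond the 5 kb limit, in the next 500 bases, there were 90 downstream and 43 upstream summits in D395A and 177 and 117 in WT, beside 109 and 42 in D395A and 169 and 92 in WT at 4501 to 5000 bases. At the gene boundary, 83 D395A summits lay up to 100 bases outside a gene span and 222 up to 100 bases inside one, and 196 WT summits lay outside and 273 inside.

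**Figure D2:**
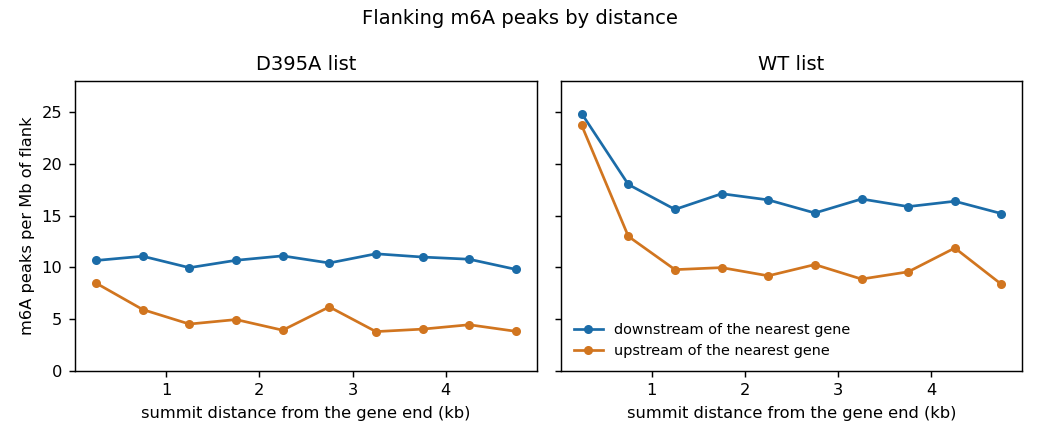
Flanking m6A peaks per Mb of non-genic sequence (y axis) in steps of 500 bases from the gene end (x axis, kb), for the D395A list on the left and the WT list on the right. The D395A downstream line stays between 9.80 and 11.3 per Mb, while the upstream line and both WT lines are highest in the first step.

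Downstream peaks stood next to more highly expressed genes than upstream peaks did. For the 1349 genes with a D395A downstream peak, the median level was 4.79 and 4.81 RPKM (reads scaled for exon length and library size) in the D395A libraries. For the 622 genes with a D395A upstream peak it was 1.12 and 1.00 RPKM. In the WT libraries, the median was 2.156 and 2.188 RPKM for the 1985 genes with a WT downstream peak and 0.763 and 0.769 RPKM for the 1338 genes with a WT upstream peak. A level of at least 1 RPKM was reached by 69.6% of the D395A downstream and 50.5% of the D395A upstream genes, and by 56.5% and 48.1% of the WT ones. Among all genes with such a flank, 26.9% to 28.6% reached it. Among nearest genes of at least 1 CPM the median was 8.92 RPKM downstream and 7.24 RPKM upstream in D395A, and 8.01 and 10.5 RPKM in WT, where the order of the sides turned. Up to 5 to 20 RPKM, the density of downstream peaks climbed with RNA level more than that of upstream peaks, most clearly in the D395A list. In the D395A list it was 1.59 per Mb downstream and 1.19 upstream beside genes listed at 0, and 37.3 per Mb downstream and 10.8 upstream beside genes of 5 to 20 RPKM. In the WT list it was 6.34 and 5.49 per Mb beside genes at 0, and 49.5 per Mb downstream and 22.6 upstream at 5 to 20 RPKM. Above 20 RPKM the D395A densities were 31.6 downstream and 8.90 upstream, and the WT densities 37.6 and 27.4. In the WT list the upstream density was thus highest above 20 RPKM, where the downstream density was past its maximum. The part of sequencing depth in these densities was not tested.

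**Figure D3:**
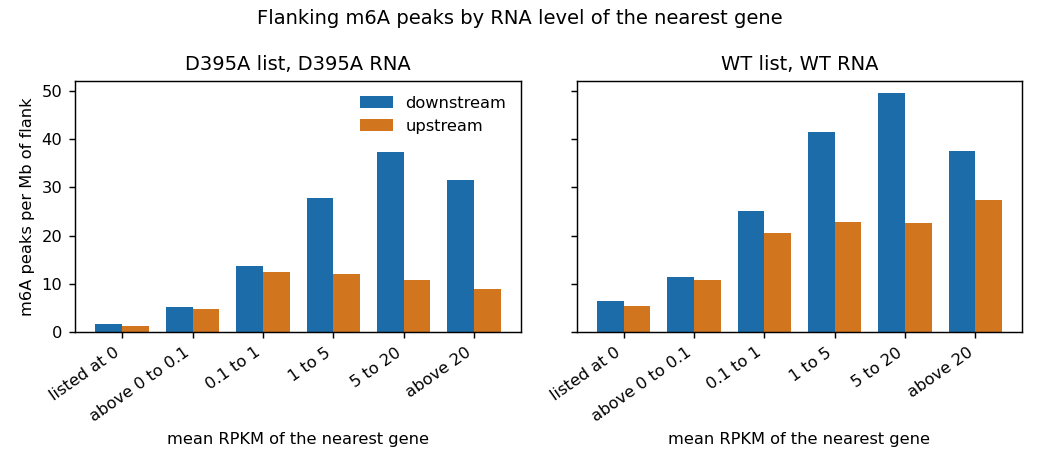
Flanking peaks per Mb of flank (y axis, bars from 0) by the mean RPKM of the nearest gene in the same genotype (x axis), D395A on the left and WT on the right, with downstream and upstream bars side by side. The sides differ less beside genes below 1 RPKM. From 1 RPKM up the downstream bars are above the upstream ones, reaching 37.3 per Mb in D395A and 49.5 in WT at 5 to 20 RPKM. Above 20 RPKM the WT bars are nearer to each other, at 37.6 and 27.4 per Mb.

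The excess on the downstream side was clear at protein-coding genes and small or absent at long non-coding RNA genes and pseudogenes. At protein-coding genes the D395A list had 17.5 peaks per Mb downstream and 5.80 upstream, and the WT list 23.7 and 13.1. At long non-coding RNA genes the densities were 6.09 downstream and 5.55 upstream in D395A and 13.1 and 11.0 in WT. At pseudogenes they were 4.32 and 4.43 in D395A and 14.0 and 12.8 in WT. Small RNA genes had 5.68 and 4.64 in D395A and 10.6 and 7.07 in WT, from 52 downstream and 35 upstream WT peaks. Genes with no RefSeq match had 5.98 and 4.73 in D395A and 12.2 and 10.3 in WT. The remaining types held few peaks, 9 downstream and 1 upstream in D395A and 21 and 16 in WT. Most flanking peaks had no second gene within 5 kb on their far side, 83.1% of downstream and 77.4% of upstream peaks in D395A and 82.4% and 82.1% in WT. A summit between 2 converging genes, where a 3′ end lies on both sides, was found for 10.9% of D395A and 10.1% of WT downstream peaks. Between diverging genes, which share a promoter region, were 6.67% of D395A and 6.04% of WT upstream peaks. Of the nearest genes of at least 1 RPKM, 73.7% of those with a D395A downstream peak also held a D395A peak inside the gene, against 64.0% of all genes of that level with a downstream flank. For upstream peaks the shares were 59.2% and 63.5%. In the WT list they were 77.7% and 70.6% for downstream and 71.9% and 71.2% for upstream. Genes with peaks on both sides numbered 79 in the D395A list and 149 in the WT list, 12.7% and 11.1% of the genes with an upstream peak. Of all genes, 2.57% in D395A and 3.78% in WT had a downstream peak. Of genes of at least 1 RPKM, 6.57% and 7.82% had one.

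The word flanking holds for the gene models of the count table. In RefSeq, 16.3% of D395A downstream and 29.4% of D395A upstream summits lay inside a gene span, and 22.4% and 27.9% of the WT ones. The span of the same nearest gene, longer in RefSeq, held 7.29% of D395A downstream and 15.8% of upstream summits, and 10.7% and 12.4% of the WT ones. Among the peaks described by gene here, those with a summit inside a RefSeq span included the D395A and WT ones upstream of Gucy1a2, Setbp1 and Plcl2, the D395A ones upstream of Zfp827 and Rnf217, the WT one upstream of Sh2d4b, and the nearest downstream peak of Lncenc1 in each list. A peak with its summit outside genes can still reach into one. Such peaks made up 4.12% of D395A downstream and 9.42% of D395A upstream peaks, and 12.9% and 16.6% of the WT ones.

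Among the strongest D395A downstream peaks were those of Sod2, N4bp1 and Taf4. Sod2, the mitochondrial superoxide dismutase, had the highest q, a peak at chr17:13021824-13022589 with its summit 4171 bases past the gene end, a fold of 9.22 and a −log10 q of 79.3. No WT peak overlapped it, and Sod2 RNA was 95.7 and 96.5 CPM in D395A against 287 and 294 CPM in WT, a log2 fold change of -1.60 ± 0.06 (SE), adjusted p = 2.4e-11 in the edgeR quasi-likelihood test. N4bp1, an RNA-degrading inhibitor of inflammatory signalling, had 4 downstream peaks in the D395A list, the most of any gene there. They ran from 286 to 4516 bases past its end, with folds of 2.15 to 5.43, and none overlapped a WT peak. The strongest of them and the nearest had summits inside a RefSeq span, the others outside. N4bp1 RNA did not pass the test (299.5 and 332.9 CPM in D395A, 348.5 and 349.9 CPM in WT, adjusted p = 0.0819), but passed without D395A replicate 2. Taf4, a subunit of the general transcription factor TFIID, had a peak 4309 bases downstream with a fold of 10.6 and a −log10 q of 22.1. Its RNA was 62.9 and 66.4 CPM in D395A and 61.9 and 58.7 CPM in WT (adjusted p = 0.192 in edgeR, past 0.05 without D395A replicate 1). The other peaks of the top 5 lay beside Mid1-ps1 and Erdr1, repeated sequences near the end of chromosome Y, with −log10 q of 22.1 and 20.7. How reads from near-identical copies were placed was not given in the sources used here, so these, like Vmn1r48 below, are uncertain.

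The strongest WT downstream peaks were wider. Gm17067 had one of 5614 bases, its summit 1656 bases downstream, with a fold of 12.9 and a −log10 q of 218.9, and a D395A peak overlapped it. Most of that width lay inside the gene, and the peaks of Gm14127 and Gm14411 below also reached into theirs. Gm17067 RNA was 36.7 and 33.0 CPM in D395A against 69.9 and 73.8 CPM in WT, a log2 fold change of -1.05 ± 0.08 (SE), adjusted p = 1.7e-08 in edgeR. Cog2, a subunit of a Golgi tethering complex, had a WT peak with a fold of 34.7 and a −log10 q of 207 at 2243 bases past its end. The same summit was 2283 bases past the end of the converging gene Agt, so nearness barely separates the 2 genes. Cog2 RNA was 38.2 and 38.5 CPM in D395A against 64.7 and 68.4 CPM in WT (log2 fold change -0.80 ± 0.07 SE, adjusted p = 1.5e-07 in edgeR). The rest of the top 5 lay beside the pseudogenes Gm9826, Gm14127 and Gm14411, with folds of 17.6 to 22.4. Their RNA was low, at most 3.58 CPM in a D395A library and 6.95 CPM in a WT library. The genes with the most WT downstream peaks were AC173345.5 with 5, and Cndp1 and Gm37404 with 4 each, all below 1 CPM in every library. Cndp1, which encodes a dipeptidase for carnosine, had folds of 6.31 to 30.8 over its 4 peaks.

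The D395A upstream peaks of highest q belonged to Gm37037, Zfp827, AC241593.2, Mir290a and Gucy1a2. Their −log10 q ran from 7.25 to 10.0, well under the downstream maximum of 79.3. Zfp827, a zinc finger protein known at telomeres, had its summit 87 bases before the start, with a fold of 5.13. Its RNA was 43.9 and 38.8 CPM in D395A against 76.5 and 77.2 CPM in WT (log2 fold change -0.90 ± 0.08 SE, adjusted p = 7.5e-08 in edgeR). Gucy1a2, a subunit of soluble guanylate cyclase, had a peak at the same place in both lists. Its summit was 303 bases upstream with a fold of 5.197 in D395A, and 289 bases upstream with a fold of 10.7 in WT. Gucy1a2 RNA was 20.16 and 20.04 CPM in D395A against 6.13 and 7.78 CPM in WT (log2 fold change 1.51 ± 0.13 SE, adjusted p = 9.7e-08 in edgeR). Triml2, a tripartite motif-like protein, had 3 upstream D395A peaks with summits from 472 to 3830 bases, all of them inside a RefSeq span. Their −log10 q ran from 0.482 to 1.64. Triml2 RNA was 89.5 and 91.2 CPM in D395A against 231 and 224 CPM in WT.

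The WT upstream peaks of highest q belonged to Vars, Gm340, Cyp27a1, Mir493 and Rai2. That of Gm340, of 5717 bases, had its summit 71 bases upstream but covered the whole gene. Vars, the valyl-tRNA synthetase, had one at chr17:34996926-34999617, its summit 2461 bases upstream, with a fold of 14.1 and a −log10 q of 222.8, the highest of all flanking peaks. The summit lay inside a RefSeq span, and Vars RNA did not pass the test (318 and 316 CPM in D395A, 331 and 321 CPM in WT, adjusted p = 0.583 in edgeR). Cyp27a1, a sterol hydroxylase of bile acid synthesis, had a fold of 40.9 at 4594 bases upstream, where the end of Ttll4 was 5250 bases away. Its RNA was 4.95 and 5.10 CPM in D395A and 3.81 and 3.81 CPM in WT (adjusted p = 0.0798 in edgeR). Of the promoters printed above, Hunk, a serine/threonine kinase, had a WT summit 90 bases before the start with a fold of 22.3, and RNA of 91.0 and 101 CPM in D395A against 50.4 and 51.6 CPM in WT (log2 fold change 0.91 ± 0.07 SE, adjusted p = 3.8e-08 in edgeR). Rnpc3, a protein of the minor spliceosome, had a fold of 19.4 at 112 bases and RNA of 33.2 and 33.0 CPM in D395A against 41.9 and 44.4 CPM in WT. Gli2, a transcription factor of Hedgehog signalling, had a fold of 15.5 at 150 bases and RNA of 280 and 340 CPM in D395A against 227 and 220 CPM in WT. Slc8a2, a sodium/calcium exchanger, had RNA of 16.1 and 15.2 CPM in D395A against 2.47 and 2.74 CPM in WT. The D395A and WT libraries of Hunk, Rnpc3, Gli2 and Slc8a2 did not overlap. These genes were chosen after their values were seen, so no weight is put on this. Of all genes tested, 36.8% were higher and 34.3% lower in D395A.

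Most peaks of either list, flanking or not, had no peak of the other list on them. Over all peaks, 13.5% of the D395A list and 10.1% of the WT list were overlapped by the other. A WT peak overlapped 239 of the D395A downstream peaks (16.1%) and 127 of the upstream ones (18.4%), against 11.4% of D395A peaks in genes and 31.4% of the distal ones. Seen from the WT list, a D395A peak overlapped 216 downstream peaks (8.94%) and 119 upstream peaks (7.49%), against 11.2% in genes and 7.99% of distal ones. The lists differ in threshold and number of libraries, so an unshared peak is not shown to be lost. Of the shared downstream peaks, those of best rank in both lists lay beside Gm14444, Vmn1r48, Zfp985 and Gm19196. Zfp985 had a fold of 4.20 in D395A and 9.70 in WT, with RNA of 52.6 and 50.1 CPM in D395A against 104.5 and 111.0 CPM in WT. Vmn1r48, a vomeronasal receptor gene with no count in any library, had 3 downstream peaks in D395A, each touched by a WT peak. Of the shared upstream peaks, Rcl1, a protein of ribosomal RNA processing, had one 4036 bases before its start with a fold of 4.40 in D395A and 14.99 in WT.

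The RNA fit asks whether genes with a flanking peak differed between the genotypes. Of 17778 genes tested, 36.8% were higher and 34.3% lower in D395A (edgeR quasi-likelihood test, adjusted p below 0.05). Of the 1349 genes with a D395A downstream peak, 1034 could be tested, 313 higher and 447 lower in D395A (30.3% and 43.2%). Of the 1985 genes with a WT downstream peak, 1262 could be tested, 357 higher and 587 lower (28.3% and 46.5%). The 239 tested genes with a downstream peak in both lists had 59 higher and 119 lower (24.7% and 49.8%). Genes with an upstream peak were nearer to the share over all genes in the D395A list, 129 higher and 134 lower of 360 (35.8% and 37.2%). In the WT list, 232 were higher and 315 lower of 725 (32.0% and 43.4%). The median log2 fold change was -0.12 for D395A downstream genes, -0.19 for WT downstream genes, -0.01 for D395A upstream genes and -0.12 for WT upstream genes, beside 0.00 over all genes tested. Where genes overlap on opposite strands their reads cannot be told apart without the strand setting of the counting, which was not given in the sources used here. Without such genes, 34.7% of 12341 were higher and 34.4% lower. The D395A downstream genes then had 274 higher and 338 lower of 844 (32.5% and 40.05%), and the WT downstream genes 315 and 460 of 1057 (29.8% and 43.5%).

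Among the nearest genes with the largest changes, Dppa3, a maternal factor that marks naive pluripotency and primordial germ cells, had a WT peak 1202 bases downstream with a fold of 4.91. Its RNA was 96.2 and 78.1 CPM in D395A against 4.93 and 5.15 CPM in WT, a log2 fold change of 4.1 ± 0.12 (SE), adjusted p = 1.7e-12 in edgeR. Sema3e, a secreted guidance factor, had a D395A peak 4417 bases downstream with a fold of 2.93 and a −log10 q of 0.301. Its RNA was 35.45 and 38.01 CPM in D395A against 0.897 and 0.590 CPM in WT. Rnf217, a ubiquitin ligase, had D395A peaks on both sides, 1125 bases downstream and 269 upstream, with −log10 q of 0.0997 and 0. Its RNA was 37.4 and 39.1 CPM in D395A against 2.84 and 2.68 CPM in WT. Gdpd5, Setbp1 and Plcl2 passed the test with higher RNA in D395A and an upstream peak, with log2 fold changes of 3.62, 3.404 and 2.80. Setbp1 and Plcl2 had their upstream peak in both lists, with −log10 q in D395A of 3.93 and 0.271. Among the D395A peaks of this paragraph, only that of Setbp1 passed q below 0.05.

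Lncenc1, a lncRNA known from naive embryonic stem cells, fell with peaks on both sides. Its RNA was 17.2 and 21.1 CPM in D395A against 733 and 727 CPM in WT, a log2 fold change of -5.24 ± 0.10 (SE), adjusted p = 3.3e-14 in edgeR. The 3 downstream WT peaks included one 72 bases past its end with a fold of 3.19. That peak overlapped a D395A peak with a fold of 2.91 and a −log10 q of 0.228, which did not pass q below 0.05. A WT peak lay 1757 bases upstream with a fold of 10.7. Slfn8, a Schlafen family protein, had a WT peak 2796 bases downstream with a fold of 26.4, and RNA of 0.609 and 0.425 CPM in D395A against 19.7 and 20.3 CPM in WT. Tlx2, a homeobox factor, had a WT peak 1961 bases upstream and RNA of 0.380 and 0.106 CPM in D395A against 26.2 and 25.3 CPM in WT. Sh2d4b had a WT peak 669 bases upstream with a fold of 7.36, and RNA of 1.45 and 1.01 CPM in D395A against 35.1 and 33.6 CPM in WT. C78283 and Aard fell with a WT downstream peak, and Gm13110 with a WT upstream one, by log2 fold changes of -4.43, -4.04 and -5.12. The genes of these 2 paragraphs were picked for the largest called RNA change, so the gap between their D395A and WT libraries follows from that choice.

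**Figure D4:**
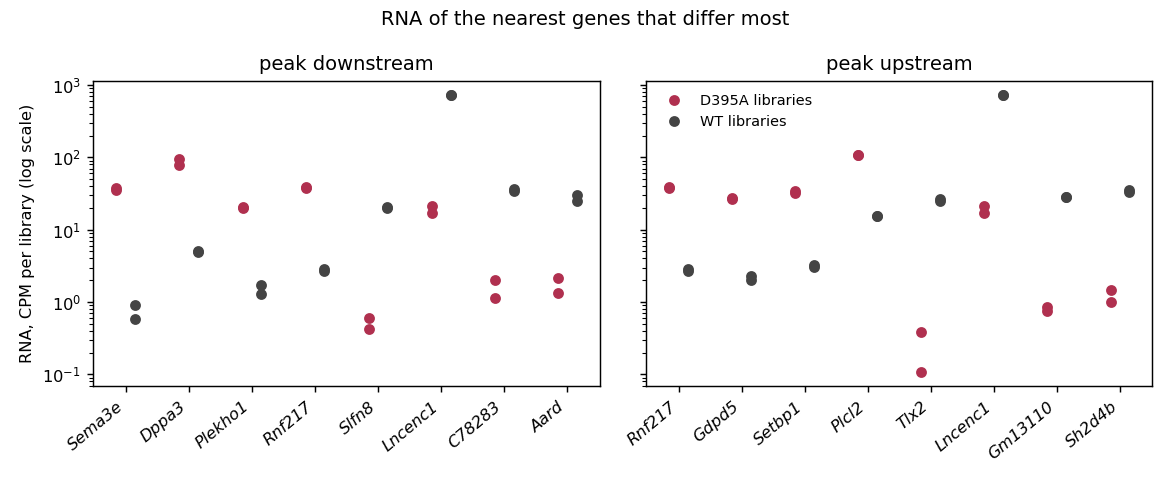
RNA of the 4 nearest genes per side and direction with the largest change, in CPM per library (y axis, log scale), D395A points left of WT points for each gene, with genes whose peak is downstream on the left and upstream on the right. Points of the same color are the 2 libraries of a genotype. The genes were picked for their large change, so the genotypes are apart by choice. Lncenc1 stands at 17.2 and 21.1 CPM in D395A against 733 and 727 CPM in WT.

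Gene lists differed in how often their members had a flanking peak. Of the 403 genes of the table named Zfp with a number, mostly zinc finger transcription factors, 49 had a D395A peak downstream (12.2%) and 82 a WT peak downstream (20.3%). The share of all 14435 genes of at least 1 RPKM was 6.57% in D395A and 7.82% in WT. Upstream, 16 zinc finger genes had a D395A peak (3.97%) and 20 a WT peak (4.96%), beside 2.18% and 4.50% of genes of at least 1 RPKM. With the 5275 strongest peaks of each list, a setting chosen after seeing the data, the downstream shares were 1.99% of zinc finger genes in D395A and 4.96% in WT, beside 0.582% and 0.811%. At a −log10 q of at least 3, 1 zinc finger gene was left with a D395A downstream peak (0.248%, beside 0.201% of genes of at least 1 RPKM), and 79 with a WT one (19.6%, beside 7.69%). Of the 49 genes and the 82 genes, 23 were the same (46.9% of the D395A set and 28.05% of the WT set). The 101 WT peaks downstream of zinc finger genes had a median fold of 7.65 and a median width of 846 bases, against 5.96 and 570.5 bases for the other WT downstream peaks. The 59 D395A peaks had a median fold of 2.72 against 2.69. Zinc finger genes lie in clusters of similar copies, in which the placing of reads is uncertain.

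The zinc finger genes with a downstream peak were more often lower in D395A than higher. Of the 49 with a D395A peak, all could be tested, 7 higher and 31 lower. Of the 82 with a WT peak, 77 could be tested, 14 higher and 39 lower. Over the whole list, 114 of 375 tested were higher and 155 lower. All tested genes with a downstream peak also leaned lower, 30.3% higher and 43.2% lower for the D395A list and 28.3% and 46.5% for the WT list. Over all genes tested, 36.8% were higher and 34.3% lower. Whether zinc finger genes differ from other genes with a downstream peak was not tested. Zfp951 had 2 downstream D395A peaks, the one given 242 bases past its end with a −log10 q of 0.356, which did not pass q below 0.05. Its RNA was 9.89 and 9.30 CPM in D395A against 50.7 and 49.1 CPM in WT (log2 fold change -2.38 ± 0.09 SE, adjusted p = 1.5e-11 in edgeR). Zfp990 had a downstream peak in both lists, with a fold of 3.10 in D395A and 7.65 in WT, and RNA of 99.5 and 96.0 CPM in D395A against 216 and 232 CPM in WT. Zfp640 had a WT peak 464 bases downstream with a fold of 7.36, and RNA of 7.46 and 7.18 CPM in D395A against 42.1 and 44.6 CPM in WT. In the other direction, Zfp746 had 2 downstream WT peaks and RNA of 101.5 and 103.8 CPM in D395A against 35.2 and 34.0 CPM in WT.

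Replication-dependent histone genes, whose mRNAs end without a poly(A) tail, had no flanking peak. None of the 70 had one on either side in either list. With 3 genes of 70 taken as the bound, a count of 0 allows a share of up to 4.29%. A downstream peak was held by 2.57% of all genes in D395A and 3.78% in WT, both under that bound. Of genes of at least 1 RPKM it was 6.57% and 7.82%. The length of flank open to histone genes was not compared, so the count of 0 is not read as a trait of them. Of 68 tested, 41 were higher and 4 lower in D395A, beside 36.8% higher and 34.3% lower over all genes tested. Genes of 3′ end cleavage, polyadenylation and termination (22) had no downstream peak in either list, where 6.57% in D395A and 7.82% in WT of genes of at least 1 RPKM had one, so a count of 0 among so few genes is near that share. Upstream, Xrn2, the exonuclease of termination, had a D395A summit 56 bases before its start with a fold of 3.59. Its −log10 q of 0.915 did not pass q below 0.05. Xrn2 RNA was 191 and 184 CPM in D395A against 235 and 242 CPM in WT (log2 fold change -0.35 ± 0.06 SE, adjusted p = 0.00015 in edgeR). Scaf8, an anti-termination factor, had upstream peaks in both lists, 1 in D395A (−log10 q of 0) and 3 in WT. Of the 22 genes, 6 were higher and 13 lower in D395A, beside 36.8% higher and 34.3% lower over all genes tested. In the nuclear exosome list (20), Zfc3h1, which directs polyadenylated nuclear RNA to the exosome, had a downstream peak in both lists, at 3064 bases with a fold of 4.46 in D395A and at 3135 bases with a fold of 6.31 in WT. Zfc3h1 RNA was 84.7 and 83.3 CPM in D395A against 147 and 154 CPM in WT, and 4 of 19 tested genes of the list were higher and 13 lower, beside the same 36.8% and 34.3%. Among 14 Integrator subunits, only Ints7 had flanking peaks, 2 downstream in D395A, the one given at 3800 bases with a −log10 q of 0.735. In RNA, 1 of 14 genes was higher and 10 lower, again beside 36.8% and 34.3%.

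Among 21 writers, erasers and readers of m6A, 4 had a D395A downstream peak, and 2 a WT one. Ythdf2, the reader that speeds mRNA decay, had a D395A peak 420 bases downstream with a fold of 3.12 and a −log10 q of 0.802. It had a WT peak 3293 bases downstream with a fold of 7.05 and a WT peak 499 bases upstream with a fold of 4.04. Ythdf2 RNA was 331 and 347 CPM in D395A against 164 and 169 CPM in WT, a log2 fold change of 1.03 ± 0.06 (SE), adjusted p = 3.3e-09 in edgeR. Rbm15, an adaptor of the writer complex, had a WT peak 299 bases downstream with a −log10 q of 110.3, and RNA of 189.8 and 189.6 CPM in D395A and 174 and 183 CPM in WT (adjusted p = 0.210, past 0.05 without D395A replicate 1). Wtap, a subunit of the complex, had a WT peak 384 bases upstream. Mettl16, a separate m6A methyltransferase, had D395A peaks on both sides, with −log10 q of 0.222 downstream and 0.852 upstream. The D395A peaks of Ythdf2 and Mettl16 did not pass q below 0.05. That of Hnrnpa2b1, 529 bases downstream with a fold of 2.22 and a −log10 q of 1.69, did pass. Hnrnpa2b1 RNA was 789 and 706 CPM in D395A against 483 and 517.5 CPM in WT (adjusted p = 1.0e-05 in edgeR). Of the 21 genes, 9 were higher and 4 lower in D395A, beside 36.8% higher and 34.3% lower over all genes tested, so the share called higher was near that of all genes.

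Of 24 naive pluripotency genes, 1 had a D395A peak downstream (Fgf4) and none upstream, while 6 had a WT peak downstream (Dppa3, Klf2, Klf5, Nr5a2, Socs3 and Zfp42) and 3 upstream (Klf4, Nr0b1 and Prdm14). Of all genes of at least 1 RPKM, 6.57% had a peak downstream and 2.18% upstream in D395A, and 7.82% and 4.50% in WT, and the difference between the lists, which have different thresholds, was not tested. In RNA, 3 of 24 were higher and 18 lower in D395A, beside 36.8% higher and 34.3% lower over all genes tested. Zfp42, a marker of naive cells, had its WT peak 452 bases downstream with a −log10 q of 62.3, and RNA of 204 and 202 CPM in D395A against 498 and 500 CPM in WT. Klf5, a transcription factor of self-renewal, had a WT peak 951 bases downstream and RNA of 78.7 and 91.4 CPM in D395A against 347 and 331 CPM in WT. Fgf4, the growth factor that primes cells to differentiate, had a D395A peak 3279 bases downstream with a fold of 3.48, and RNA of 58.5 and 65.4 CPM in D395A against 276 and 277 CPM in WT. The part of RNA level in these counts of peaks was not tested. Among 21 genes of H3K9 methylation and demethylation, Phf2, a demethylase, had a D395A downstream peak and Kdm4b, another, had 3 WT ones, and 9 genes were higher and 9 lower of 21, near the shares over all genes tested (36.8% and 34.3%). Of 20 immediate early genes, Ier2 had a downstream peak in both lists and Atf3 and Btg2 in the WT list. Of 15 nuclear long non-coding RNAs, Lncenc1 and Rian had a D395A downstream peak, and Lncenc1 and Firre a WT one. Firre, an X-linked RNA of nuclear organisation, had 2 downstream WT peaks and RNA of 76.9 and 76.3 CPM in D395A against 211 and 213 CPM in WT. Ribosomal protein genes (84) had 5 members with a D395A and 2 with a WT downstream peak, and 0 with a D395A and 4 with a WT upstream peak. Of 28 imprinted genes, 1 had a D395A downstream and 1 a D395A upstream peak, and 0 a WT downstream and 2 a WT upstream peak. The 16 small nucleolar RNA hosts held 1, Snhg17, downstream in D395A, and the 39 Hox genes 1 on each side in D395A, with 1 downstream and 2 upstream in WT. The D395A peaks of Fgf4, Phf2, Ier2, Lncenc1, Rian and Snhg17 had −log10 q of 0 to 0.951, and none passed q below 0.05.

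**Figure D5:**
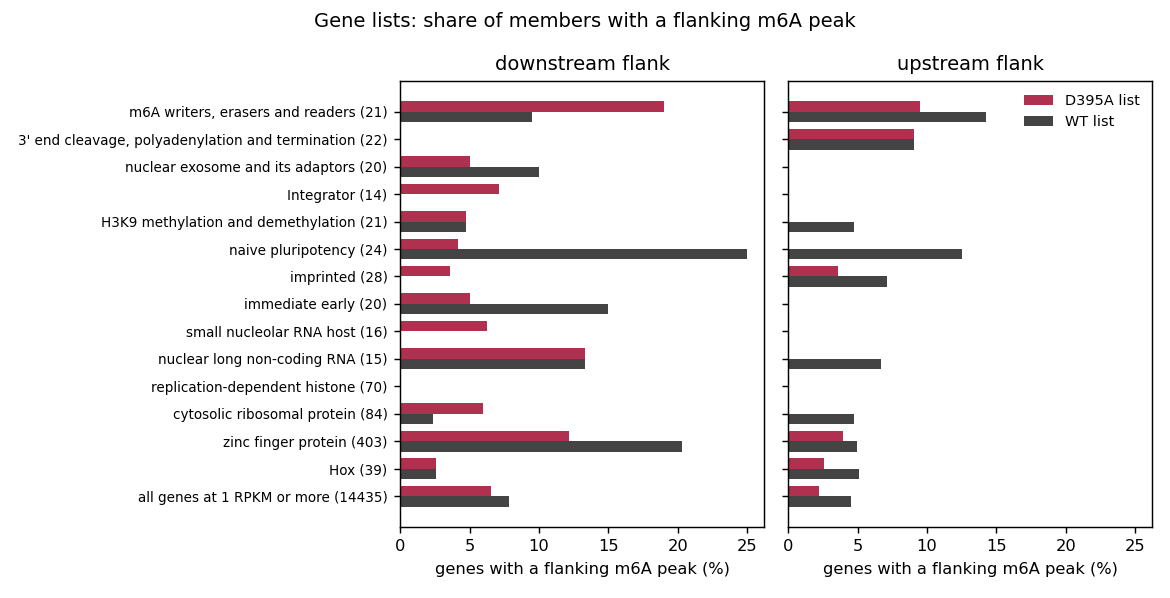
Share of the members of each gene list with a flanking m6A peak (x axis, percent, bars from 0), downstream on the left and upstream on the right, D395A bars above WT bars, with the number of genes in brackets. Zinc finger genes reach 12.2% in D395A and 20.3% in WT downstream, beside 6.57% and 7.82% of genes of at least 1 RPKM, and histone genes stand at 0.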

How the data were processed

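The members and gene lists were chosen with earlier results of these data known. Per the submitters' processing notes, FastQC, Trimmomatic 0.33.0, HISAT2 2.1.0, Bowtie2 2.3.4.1, Picard 2.16.0, SAMtools 1.7, MACS2 2.1.1, featureCounts 1.6.3 and edgeR 3.22.5 were used, with mm10 for mouse, and which tool made which file is not recorded. The deposited RNA file holds raw counts per gene with exon coordinates. A column whose name differs by 1 character was taken as D395A replicate 1. The deposited peak lists give the authors' fold enrichment (a ratio), −log10 p and −log10 q. Smallest deposited values are −log10 p of 1.30 in D395A and −log10 q of 1.31 in WT. The WT list covers 2 immunoprecipitated and 2 input libraries, and its 2 extra columns without labels stayed unused. How its libraries were joined was not given in the sources used here.

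Summits were placed by the gene spans of the count table (52459 genes), with the nearest gene end deciding the side. Non-genic bases were divided among sides in the same way to give peaks per Mb. Names and coordinates matched RefSeq GRCm38.p6, where 35034 of 35091 shared symbols (99.8%) overlapped. Genes with both strands in the table (4) were put on neither side. Counts were filtered with filterByExpr (17778 genes), scaled with TMM and compared by the quasi-likelihood test of edgeR 4.0.16 in R 4.3.3, with Benjamini-Hochberg adjustment. CPM and RPKM use the scaled sizes. Peaks overlapped when they shared 1 base. The steps were tested on simulated data. Alternatives used DESeq2 1.42.0. Positions were handled in pandas 2.3.3 and numpy 2.4.6 under Python 3.11.15, intervals in scipy 1.17.1, and figures in matplotlib 3.10.9.

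The rule for names took, per list and side, the 5 peaks of highest q and the 3 genes with most peaks. Per side it took the 4 shared peaks of best rank and, in each direction, the 4 genes with the largest RNA change among those with a mean of at least 10 CPM and no overlap on the other strand. For list members with a flanking peak the rule was the smallest adjusted p, up to 4 per list. It was not followed in every list, such as that of m6A writers, erasers and readers. Members outside the rule were named after their values were seen, as were genes printed with a promoter.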

Additional observations from a re-analysis of the deposited data

How the results depend on the processing

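Downstream peaks outnumbered upstream peaks in both lists under all 9 alternatives. The downstream share was 61.4% in D395A and 55.2% in WT with a flank of 1 kb (ratios per Mb of 1.501 and 1.16), 64.8% and 58.2% with 2 kb (1.75 and 1.32), and 74.6% and 63.8% with genes of at least 1 CPM (3.05 and 1.83). With a −log10 q of at least 3 it was 60% in D395A, 45 and 30 peaks, a ratio of 1.45 (0.896 to 2.39), which includes 1. With the same number of top peaks it was 64.2% in D395A and 72.6% in WT (1.74 and 2.56). Without summits between genes in tandem, the D395A share was 70.6%.

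Overlap with the other list, with the same number of top peaks, was 7.63% of D395A downstream, 1.37% of D395A upstream, 6.10% of WT downstream and 3.23% of WT upstream peaks. With a −log10 q of at least 3 it was 23.3% of D395A upstream, 0.382% of WT downstream and 0.385% of WT upstream peaks. Zinc finger genes, under settings chosen after seeing the data, had a peak in 4.71% (D395A downstream), 1.74% (D395A upstream) and 10.4% (WT downstream) with a flank of 2 kb. Beside these, the shares of genes of at least 1 RPKM were 3.12%, 1.34% and 4.72%. With the same number of top peaks they were 1.99%, 0.496%, 4.96% and 0.248% (WT upstream), and with a −log10 q of at least 3 both D395A shares were 0.248%. The shares of genes of at least 1 RPKM were 0.582%, 0.270%, 0.811% and 0.256% with the same number of top peaks, and 0.201% (D395A downstream) and 0.125% (D395A upstream) with a −log10 q of at least 3.

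The median RPKM of nearest genes was 4.92 (D395A downstream), 2.13 (WT downstream) and 0.762 (WT upstream) without scaling of library sizes. It was 4.62 and 0.858 in D395A and 1.71 and 0.536 in WT, downstream and upstream, without overlap on the other strand, and 8.92, 7.24, 8.01 and 10.5 with genes of at least 1 CPM, where the WT order of the sides turned. Each replicate left out gave 4.79 to 4.81, 1.00 to 1.12, 2.156 to 2.188 and 0.763 to 0.769.

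Without genes overlapped on the other strand, 4277 genes were called higher in D395A, of fewer tested. Same-numbered libraries did not deviate together (correlation 0.034), and a replicate block gave 6656 higher and 6239 lower, against 6550 and 6093. Counts of called nearest genes stayed within 1.5 times under every alternative run. Where a replicate was left out, its group's remaining library was taken to vary as the other group does. Of 75 named genes with a fit, 65 kept their call and direction in every setting. No genome was used, so windows around summits were not searched and their alternatives were not run. Depth of the m6A libraries is unknown.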
